A study of Mus musculus with 8 samples.

Results

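The 9 genes described here encode molecules through which regulatory T cells can restrain other cells. They are the cytokine gene Il10, the interleukin-35 chain genes Ebi3 and Il12a, the secreted fibrinogen-like gene Fgl2, the granule genes Gzma, Gzmb and Prf1, and the surface enzyme genes Nt5e and Entpd1. They were taken by symbol from 1 table of read counts, in which all 9 of them were found among 24108 named genes. A filter on low counts left 13989 genes for testing, and 8 of the 9 genes were among them. Il12a was not, with 19 counts over all 8 libraries.

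Libraries came from CD4 T cells of mouse mesenteric lymph nodes, with 2 libraries in each of 4 populations. Every population carried the same labelled genotype, with the alleles Foxp3DTR-GFP/Thy1.1, CD4CreER/wt and R26lsl-tdTomato/wt. The first of these places a diphtheria toxin receptor with GFP on 1 copy of Foxp3 and Thy1.1 on the other, and a tamoxifen-activated Cre driven by CD4 switches on red tdTomato. All mice had been bred and weaned on AVNM, a term the labels do not spell out, with a diet of defined amino acids. They received tamoxifen and then about 3 weeks of labelling with diphtheria toxin, followed by chow and fecal microbiota of specific pathogen-free mice, and cells were sorted 12 days after colonization. The populations were tdTomato-negative Thy1.1, tdTomato-positive Thy1.1, tdTomato-negative GFP and tdTomato-positive GFP cells; tdTomato-positive cells are called marked below and tdTomato-negative cells unmarked. The labels' design aims the mark at CD4 T cells outside the thymus that did not express Foxp3 at the time. Marked GFP cells are thus candidates for peripherally induced regulatory T cells. The names of the alleles give the toxin receptor to GFP cells only. Thy1.1 cells that already expressed Foxp3 would be spared by the toxin, so marked Thy1.1 cells may include them. The labels do not say whether both reporters were sorted from the same animals, so any difference of source cannot be told apart from the reporter.

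Regulatory T cells act on their neighbours by several routes. Interleukin-10 is a cytokine that dampens myeloid cells and T cells and is a main product of regulatory T cells in the intestine. Interleukin-35 is described as a pair of the EBI3 and IL-12 p35 chains, the latter encoded by Il12a, while EBI3 can also pair with other chains. Granzymes are serine proteases stored in granules, and perforin, the product of Prf1, forms the pore through which they reach a target cell. On the cell surface, CD39 (Entpd1) breaks down extracellular ATP and ADP to AMP, and CD73 (Nt5e) turns AMP into adenosine, which signals to T cells mainly through the receptor encoded by Adora2a. In T cells, Maf, Prdm1 (Blimp-1), Irf4, Batf, Nfil3 and Ahr are known to promote Il10 transcription, and Bach2 is known to restrain effector programmes. The 4 populations allow 1 question to be put to each gene, namely whether its level differed with the reporter, with the mark, or with both.

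Promoters are shown for Gzmb, Fgl2 and Nt5e, which were higher in marked GFP cells in both comparisons below, and for Ebi3, which was lower with the GFP reporter. Each is the stretch of 250 bases before the RefSeq gene start on the strand of the gene, in build GRCm38.p6, with matches to the searched motifs in capitals. The windows are chr14:56262335-56262584 on the minus strand for Gzmb, and chr5:21372423-21372672, chr9:88327359-88327608 and chr17:55952373-55952622 on the plus strand for Fgl2, Nt5e and Ebi3.
Gzmb: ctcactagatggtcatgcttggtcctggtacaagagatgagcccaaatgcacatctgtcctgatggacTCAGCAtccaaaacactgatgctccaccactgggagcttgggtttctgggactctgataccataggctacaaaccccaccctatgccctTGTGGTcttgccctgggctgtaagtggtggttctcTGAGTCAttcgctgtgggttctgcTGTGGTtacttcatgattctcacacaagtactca
Fgl2: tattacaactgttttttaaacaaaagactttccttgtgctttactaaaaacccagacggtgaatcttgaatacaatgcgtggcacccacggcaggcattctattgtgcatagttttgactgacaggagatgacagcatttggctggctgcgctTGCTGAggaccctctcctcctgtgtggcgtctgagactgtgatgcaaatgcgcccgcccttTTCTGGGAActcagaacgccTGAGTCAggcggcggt
Nt5e: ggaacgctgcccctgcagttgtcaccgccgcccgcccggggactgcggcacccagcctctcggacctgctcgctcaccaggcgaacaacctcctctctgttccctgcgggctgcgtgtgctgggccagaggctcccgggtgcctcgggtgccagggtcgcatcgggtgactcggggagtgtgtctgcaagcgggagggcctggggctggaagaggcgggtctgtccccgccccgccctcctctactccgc
Ebi3: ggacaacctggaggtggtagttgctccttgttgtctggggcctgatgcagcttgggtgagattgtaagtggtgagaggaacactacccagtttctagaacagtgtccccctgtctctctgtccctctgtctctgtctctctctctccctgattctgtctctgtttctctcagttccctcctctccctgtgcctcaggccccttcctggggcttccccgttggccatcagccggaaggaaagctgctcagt
The motifs were chosen after the values were seen and searched on both strands: AP-1 (TGANTCA), STAT (TTCNNNGAA), RUNX (TGTGGT), T-box (GGTGTG), a MAF core (TGCTGA) and a TATA box (TATAAA). The Gzmb window holds 4 matches, an AP-1 match from 58 to 52 bases before the start, RUNX matches from 93 to 88 and from 34 to 29 bases, and a MAF core on the other strand from 182 to 177 bases. The Fgl2 window holds 3, an AP-1 match from 16 to 10 bases before the start, a STAT match from 36 to 28 and a MAF core from 97 to 92. No matches overlapped. The Nt5e window, with a GC content of 72.0%, and the Ebi3 window hold 0 matches. Windows not shown were searched too. Those of Prf1 and Gzma hold 1 RUNX match each. For Il12a, 1 window holds a T-box match and the other a RUNX match, and the Entpd1 windows hold 0 matches. Over 32851 RefSeq windows of the same length, 6.75% held the AP-1 letters, 7.02% the STAT letters and 14.0% the RUNX letters. The T-box letters were held by 16.3% and the MAF core by 16.1%, so these matches are descriptions of the letters and not of bound sites. Of the 9 genes, 8 had a promoter entry; Il10 is named only.

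Library totals lay between 38085686 and 47908198 counts, and levels are given as CPM, which puts the counts of all libraries on 1 common total after normalization. A count of 0 allows for up to 3 counts, which equalled 0.0614 to 0.0806 CPM. The sort was checked on markers. The 6 CD4 and regulatory T cell markers all had counts in all 8 libraries and summed to 3290 to 4080 CPM. That sum covers genes that differed in opposite directions. Ikzf2 averaged 155 CPM in marked GFP and 787 CPM in marked Thy1.1 cells, while Ctla4 averaged 1170 and 445 CPM. Markers of CD8 T and NK cells summed to 12.7 to 41.0 CPM, with Klra8, Klra4 and Klre1 at 0 in all 8 libraries. B cell markers summed to 8.62 to 42.7 CPM, plasma cell markers to 0 to 3.3 CPM, and mast cell and basophil markers to 0.0537 to 7.03 CPM. Stromal and epithelial markers summed to 154 to 315 CPM, nearly all of it Pecam1 (98.1 to 304 CPM) and Epcam (11.1 to 46.7 CPM). Col1a1 reached 7.83 CPM, while Col3a1, Pdpn and Krt8 stayed at or below 1.31 CPM. Unmarked GFP library 3 stood apart, with 119 CPM of myeloid and dendritic cell markers, and marked GFP library 3 had 31.1 CPM of these and 47.5 CPM of erythroid markers. In the other libraries myeloid and dendritic markers summed to 4.43 to 7.02 CPM and erythroid markers, of which 3 of 5 were in the table, to 1.73 to 5.37 CPM. The myeloid sum of marked GFP library 3 was nearly all Lyz2 (21.9 CPM) and Cd68 (9.14 CPM). Csf1r, Itgax, H2-Aa, Siglech, Clec9a and C1qa were at 0 there. Its erythroid sum was mostly Hba-a2 (29.5 CPM) and Hbb-bs (15.3 CPM), with Alas2 at 2.64 CPM in a range of 0.322 to 3.06 CPM over all libraries. Bulk levels cannot tell more cells that express a gene from more RNA per cell.

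In marked cells, GFP against Thy1.1, Il10, Fgl2, Gzmb and Nt5e were higher and Ebi3 was lower with GFP (edgeR quasi-likelihood test, adjusted p under 0.05). Those are 4 higher and 1 lower of 8 tested genes, against a background of 14.8% of all 13989 genes called, 8.01% higher and 6.82% lower. The median log2 fold change was 0.43 over the 8 genes and -0.01 over all genes tested. In GFP cells, marked against unmarked, 6 of the 8 genes were higher with the mark and 0 lower: Il10, Ebi3, Fgl2, Gzmb, Nt5e and Entpd1. There the background was 12.6% of genes called, 6.24% higher and 6.4% lower, and the medians were 1.23 for the 8 genes and 0.03 for all. These 2 comparisons share the marked GFP libraries, so their values are given side by side and do not count as separate observations of the same gene. With 2 libraries per population, separation without overlap was common. It held for 59% of all genes tested in the first comparison and 53.8% in the second, in either direction.

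In the other 2 comparisons few genes of any kind were called. Between unmarked cells, GFP against Thy1.1, Ebi3 was the 1 called gene of the 8 and was lower with GFP, where 0.164% of all genes were called and 0.1% were called lower. The medians were -0.19 for the 8 genes and 0 for all. Between marked and unmarked Thy1.1 cells, 0 of the 8 genes and 0 of 13989 (0%) were called by edgeR, with 1063 genes at an unadjusted p under 0.05 and 150 genes called by DESeq2, of which Il10 was the 1 among these 8. The medians there were 0.6 for the 8 genes and 0.01 for all. The tested difference between reporters in the change with the mark (the interaction) was called for 0 of the 8 genes, with a background of 0.443%.

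**Figure D1:**
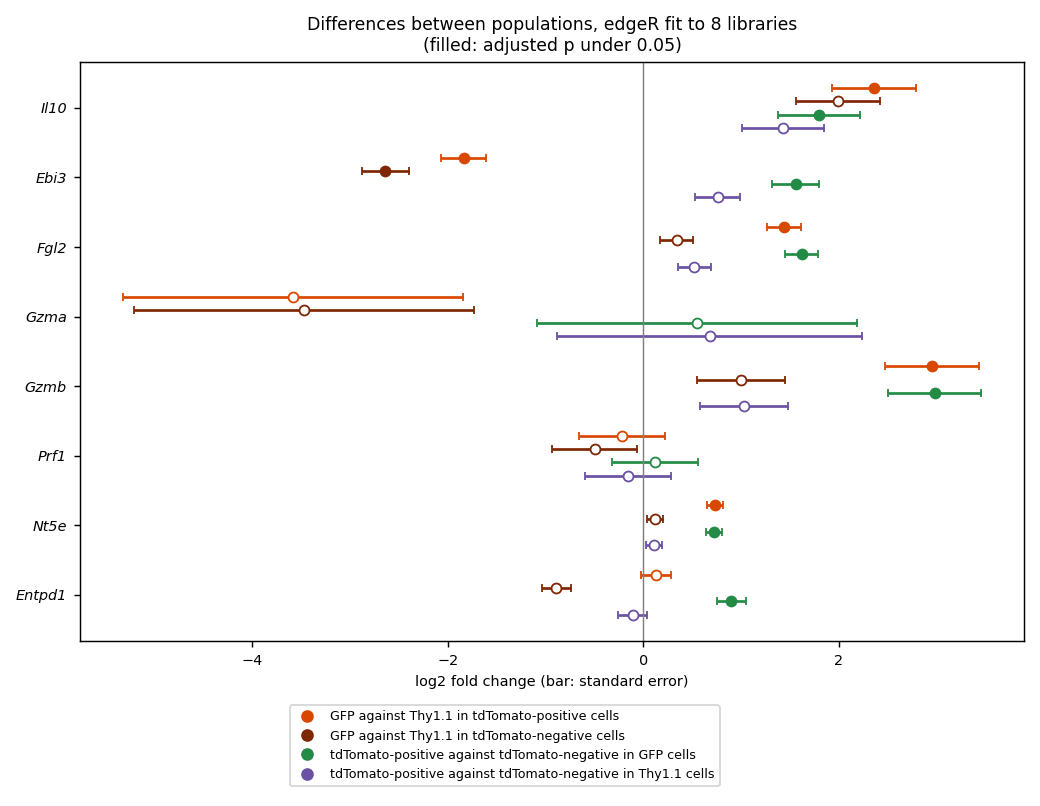
Log2 fold changes of the 8 tested genes in the 4 pairwise comparisons (x axis, log2 scale) with 1 row per gene, where points are edgeR estimates over 2 libraries per population, bars are standard errors and filled points have an adjusted p under 0.05. The orange and green estimates of Gzmb lie near 3 and those of Nt5e near 0.7, the Ebi3 estimates between reporters lie below 0, and the bars of Gzma are the widest.

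Il10 was highest in marked GFP cells. It was measured at 7.37 and 15.5 CPM in unmarked Thy1.1 cells, 34.9 and 26.6 CPM in marked Thy1.1 cells, 56.8 and 33.8 CPM in unmarked GFP cells, and 202 and 113 CPM in marked GFP cells. Both marked GFP libraries lay above every other library, both unmarked Thy1.1 libraries lay below every other one, and the 2 middle populations overlapped. Il10 rose with GFP in marked cells by 2.36 ± 0.43 on the log2 scale (SE, 2 libraries per population; edgeR adjusted p = 0.0112), which is 5.13-fold. With the mark in GFP cells it rose by 1.80 ± 0.42 (edgeR adjusted p = 0.0311), or 3.48-fold. The other differences pointed the same way without passing, at 1.99 ± 0.43 for GFP against Thy1.1 in unmarked cells (edgeR adjusted p = 0.125) and 1.43 ± 0.42 for the mark in Thy1.1 cells (edgeR adjusted p = 0.545). DESeq2 called both of these differences. The interaction was 0.37 ± 0.58 with a 95% interval from -0.98 to 1.71 (edgeR adjusted p = 0.855), so a difference in the mark's change between reporters was not detected within these bounds.

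The Il10 calls depended on single libraries. Without marked Thy1.1 library 1 or 2, the difference between reporters in marked cells was 2.51 or 2.13 with an adjusted p of 0.0749 or 0.0938. Without either of those 2 libraries, unmarked GFP library 4 or marked GFP library 3, the change with the mark in GFP cells lost its call (adjusted p 0.0583 to 0.186). Marked GFP library 3, the library with the erythroid markers, held 1.79 times the Il10 level of library 4; without it the log2 differences were 1.83 and 1.28. What the markers contribute to Il10 was not tested.

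**Figure D2:**
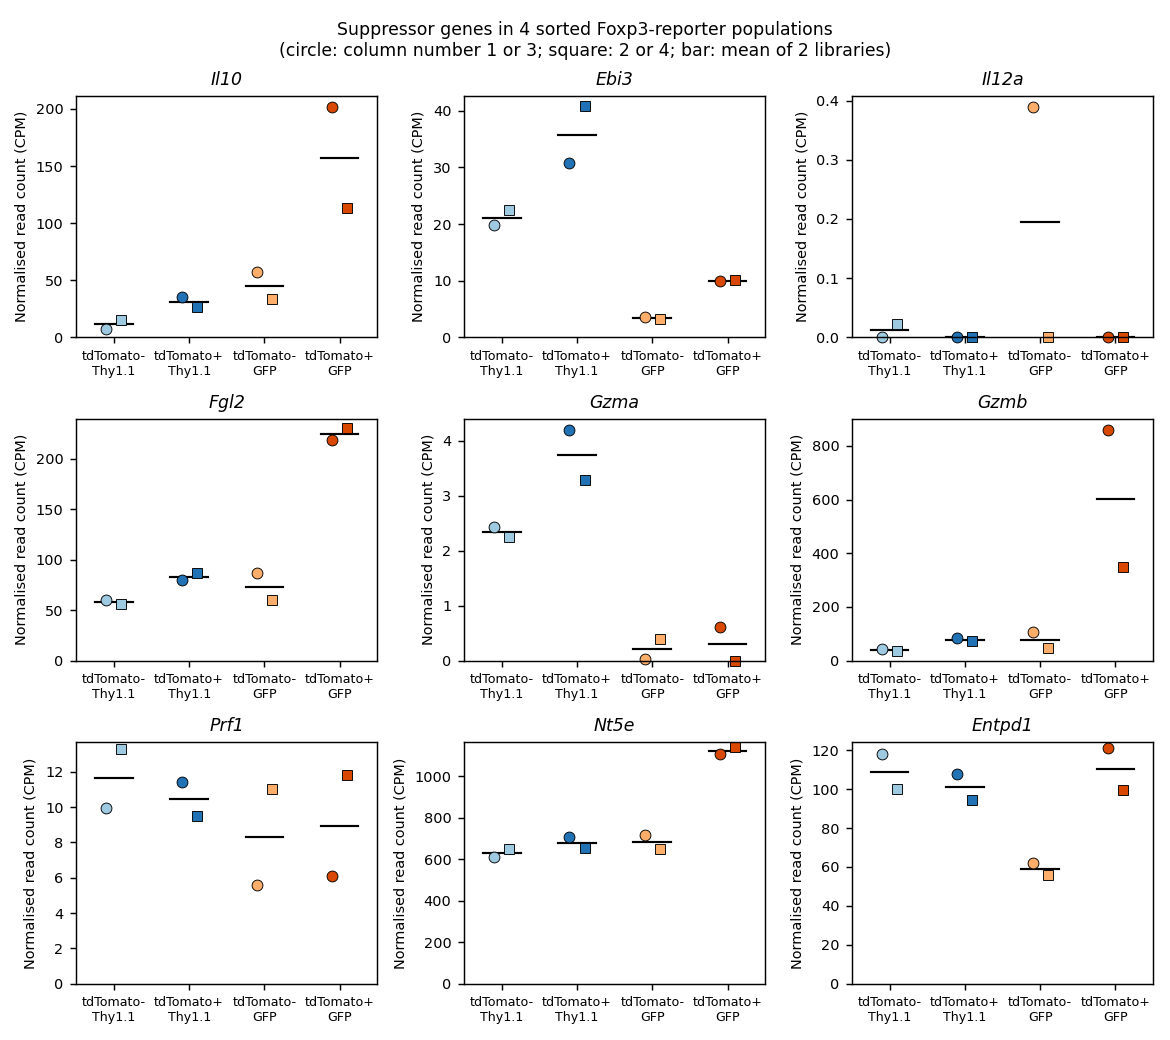
Normalised read count in CPM (y axis, linear and starting at 0, with its own range in each panel) of the 9 genes in the 4 populations (x axis), where each point is 1 library and the bar is the mean of 2. Marked GFP libraries stand above all others for Il10, Fgl2, Gzmb and Nt5e; Ebi3 and Gzma are highest in Thy1.1 cells, and 18 counts in 1 library are nearly all of the Il12a signal.

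Genes that act on Il10 transcription were described from a list of 14, all of which were tested. In marked cells 7 were higher and 1 lower with GFP, and in GFP cells 9 were higher and 1 lower with the mark, with list medians of 0.70 and 0.89 on the log2 scale. Over all genes tested, 8.01% were higher and 6.82% lower in the first comparison and 6.24% and 6.4% in the second, with medians of -0.01 and 0.03. Prdm1 was measured at 34.1 and 40.9 CPM in unmarked Thy1.1, 56.5 and 57.3 CPM in marked Thy1.1, 94.1 and 71.2 CPM in unmarked GFP, and 229 and 277 CPM in marked GFP cells. Its libraries thus stood in the same order of populations as those of Il10, without overlap. Prdm1 rose by 2.15 ± 0.17 between reporters in marked cells (edgeR adjusted p = 0.000842) and by 1.61 ± 0.17 with the mark in GFP cells (edgeR adjusted p = 0.00237). Ahr, a ligand-activated receptor, rose by 1.75 ± 0.16 and 1.36 ± 0.15 in the same comparisons, and Maf by 1.83 ± 0.25 and 1.46 ± 0.25.

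Bach2 moved the other way. It stood at 515 and 542 CPM in unmarked Thy1.1 cells, 326 and 317 CPM in marked Thy1.1 cells, 556 and 641 CPM in unmarked GFP cells, and 116 and 142 CPM in marked GFP cells. Bach2 fell by 1.32 ± 0.12 with GFP in marked cells (edgeR adjusted p = 0.000977) and by 2.22 ± 0.12 with the mark in GFP cells (edgeR adjusted p = 0.000286). It was the 1 gene of the list with a called interaction, -1.5 ± 0.16 (edgeR adjusted p = 0.0165), meaning a larger fall with the mark in GFP cells than in Thy1.1 cells. That call was lost without any 1 of the 4 Thy1.1 libraries, with an adjusted p of up to 0.116. In both pairwise comparisons the calls of Prdm1, Ahr and Bach2 held under all 16 alternatives, and the Maf call between reporters did too.

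Irf4, Nfil3 and Batf, known to act together with Maf and Prdm1, were the other listed promoters named above. Irf4 rose by 1.84 ± 0.35 with GFP in marked cells (edgeR adjusted p = 0.0137) but stood at 0.18 ± 0.34 for the mark in GFP cells (edgeR adjusted p = 0.79). Nfil3 rose by 1.57 ± 0.29 and 1.22 ± 0.28, and Batf by 0.79 ± 0.21 and 1.06 ± 0.21. The Irf4 and Nfil3 calls between reporters were lost without either marked Thy1.1 library (adjusted p up to 0.119), and the Batf call between reporters with library totals alone as scaling and without any 1 of 5 libraries (up to 0.25). With the mark in GFP cells, the Nfil3 call held under 10 and the Batf call under 13 of 16 alternatives.

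On the receiving side of interleukin-10, 8 genes were listed and 7 tested. In marked cells 0 were higher and 2 lower with GFP, and in GFP cells 1 was higher and 1 lower with the mark, where 14.8% and 12.6% of all genes tested were called. Il10ra, the ligand-binding receptor chain, stood at 68.8 and 95.7 CPM in unmarked GFP cells and 138 and 227 CPM in marked GFP cells. Its rise of 1.15 ± 0.24 with the mark (edgeR adjusted p = 0.0235) held under 8 of 16 alternatives, and each of 7 single libraries ended it when left out (adjusted p up to 0.0982). Il10rb, the chain shared with other receptors, fell by 0.60 ± 0.10 with GFP in marked cells (edgeR adjusted p = 0.00886), a call lost without either marked Thy1.1 library. Its difference between reporters in unmarked cells was -0.45 ± 0.10 and did not pass (edgeR adjusted p = 0.14). Jak1, a kinase bound to the receptor, fell by 0.39 ± 0.11 with GFP in marked cells (edgeR adjusted p = 0.0499) and by 0.61 ± 0.11 with the mark in GFP cells (edgeR adjusted p = 0.0133). The Jak1 call between reporters held under 9 of 16 alternatives.

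Ebi3 had the opposite order of reporters. It stood at 19.8 and 22.5 CPM in unmarked Thy1.1 cells, 30.8 and 40.8 CPM in marked Thy1.1 cells, 3.53 and 3.26 CPM in unmarked GFP cells, and 9.88 and 10.1 CPM in marked GFP cells. No 2 populations overlapped, and every Thy1.1 library lay above every GFP library. Ebi3 fell by 1.84 ± 0.23 on the log2 scale with GFP in marked cells (edgeR adjusted p = 0.00309), to 0.279 of its level. In unmarked cells it fell by 2.64 ± 0.24 (edgeR adjusted p = 0.0146), to 0.16 of its level. With the mark in GFP cells it rose by 1.56 ± 0.24 (edgeR adjusted p = 0.00729), and in Thy1.1 cells the value was 0.76 ± 0.23 (edgeR adjusted p = 0.55). The interaction was 0.80 ± 0.32, with a 95% interval from 0.06 to 1.54 (edgeR adjusted p = 0.36).

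The reporter difference of Ebi3 in marked cells held under all 16 alternatives, with log2 values from -2.09 to -1.67. In unmarked cells the value moved little, from -2.73 to -2.54, but the call was lost without any 1 of 5 libraries (the 4 Thy1.1 libraries and unmarked GFP library 3; adjusted p 0.0589 to 0.0956). The rise with the mark in GFP cells lost its call without unmarked GFP library 4 (1.46, adjusted p = 0.0542). Exons of Ebi3 overlap the antisense gene model Gm16712 by 270 bases, 23.4% of its exon length in the GENCODE annotation, and the library kit does not mark strand. Gm16712 had 0.638 to 0.969 times the counts of Ebi3 in each library and fell with GFP in marked cells by 1.51 ± 0.31 (edgeR adjusted p = 0.0167), so reads of the 2 genes cannot be told apart and the level of Ebi3 is uncertain. The 5 B cell markers used, of a cell type that also expresses Ebi3, summed to 36.0 to 42.7 CPM in Thy1.1 and 8.62 to 22.3 CPM in GFP libraries, with Pax5 at 0 in 2 libraries and Ebf1 in 1. Most of that gap is Cd79b, at 28.8 to 32.7 CPM in Thy1.1 and 3.68 to 14.4 CPM in GFP libraries. Cd79a followed it in marked cells, at 6.03 and 10.2 CPM in Thy1.1 and 3.0 and 4.3 CPM in GFP cells. In unmarked cells Cd79a did not, at 4.91 and 9.6 CPM in Thy1.1 and 9.26 and 10.3 CPM in GFP cells. Pax5 was lower with GFP in unmarked cells, at 1.08 and 0.374 against 0.0216 and 0.044 CPM, and overlapped in marked cells. Ms4a1 was highest in unmarked GFP library 3 (2.16 CPM). The part of B cells in the Ebi3 difference was not tested.

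Il12a, the other chain of interleukin-35, was all but undetected. It had 1 count in unmarked Thy1.1 library 2, 18 counts in unmarked GFP library 3 and 0 counts in the other 6 libraries. The 18 counts correspond to 0.389 CPM with an exact Poisson 95% interval from 0.231 to 0.615 CPM, which covers counting error only. The library that held them is the one with 119 CPM of myeloid and dendritic cell markers, among them Siglech at 36.8 CPM; whether these cells supplied the Il12a reads was not tested. Both marked GFP libraries had 0 counts, which allows up to 0.0806 CPM. Related chains were as low, with Il12b and Il23a at 0 counts in all 8 libraries and Il27 at 4 counts in all.

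Receptor genes of the IL-12 family were detected. Of 11 listed chains and receptors, 8 were tested, 1 was higher with GFP in marked cells and 1 with the mark in GFP cells, and 0 were lower. With 14.8% and 12.6% of all genes called in these comparisons, 1 of 8 is near the background. Both calls were Il12rb1, a chain of the IL-12 and IL-23 receptors, at 41.9 and 57.7 CPM in unmarked Thy1.1, 60.5 and 71.9 CPM in marked Thy1.1, 109 and 77.6 CPM in unmarked GFP and 190 and 172 CPM in marked GFP cells. Il12rb1 rose by 1.45 ± 0.21 (edgeR adjusted p = 0.00515) and by 0.95 ± 0.21 (edgeR adjusted p = 0.0262), and the first call was lost without marked Thy1.1 library 1 (adjusted p = 0.0609). The second held under 11 of 16 alternatives. Il12rb2, the partner chain for IL-12, stood at 1.84 ± 0.71 and 0.26 ± 0.69, and Il6ra at -0.63 ± 0.18 and -0.57 ± 0.18, none of which passed.

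Fgl2 encodes a secreted protein that binds inhibitory Fc receptors on myeloid and B cells. It was measured at 60.1 and 55.7 CPM in unmarked Thy1.1, 79.5 and 86.6 CPM in marked Thy1.1, 86.5 and 60.0 CPM in unmarked GFP, and 219 and 231 CPM in marked GFP cells. The marked GFP libraries lay far above the other 6, which ranged from 55.7 to 86.6 CPM. Fgl2 rose by 1.44 ± 0.17 on the log2 scale with GFP in marked cells (edgeR adjusted p = 0.00277), or 2.71-fold, and by 1.62 ± 0.17 with the mark in GFP cells (edgeR adjusted p = 0.00237), or 3.07-fold. Both calls held under all 16 alternatives. In unmarked cells the reporter difference was 0.34 ± 0.17 (edgeR adjusted p = 0.493), and with the mark in Thy1.1 cells it was 0.52 ± 0.17 (edgeR adjusted p = 0.592).

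The interaction of Fgl2 was 1.1 ± 0.24 (edgeR adjusted p = 0.131). It was called by DESeq2 and without unmarked GFP library 3, the library with the myeloid markers, where it was 1.39 (adjusted p = 0.0345). Fgl2 lies inside Ccdc146 on the opposite strand, with 0 bases of exon overlap in the GENCODE annotation. Counts of Ccdc146 were nevertheless 1.0 to 1.04 times those of Fgl2 in every library, with changes of 1.39 ± 0.17 and 1.62 ± 0.17 in the same comparisons. The table thus carries nearly the same counts under both names, and the reads of the 2 genes cannot be told apart here. Of the 3 listed relatives and receptors of FGL2, 1 was tested, Fcgr3, and it was not called; Fcgr2b, its inhibitory receptor, had 9 counts in all.

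Gzmb, the protease granzyme B, showed the largest called change of the 9 genes in both comparisons with marked GFP cells. It stood at 42.4 and 34.1 CPM in unmarked Thy1.1, 82.2 and 73.8 CPM in marked Thy1.1, 105 and 47.6 CPM in unmarked GFP, and 860 and 347 CPM in marked GFP cells. Both marked GFP libraries exceeded all others, yet they differed 2.48-fold from each other. Gzmb rose by 2.95 ± 0.48 with GFP in marked cells (edgeR adjusted p = 0.00748), or 7.74-fold, and by 2.98 ± 0.48 with the mark in GFP cells (edgeR adjusted p = 0.00924), or 7.90-fold. The other differences were about 2-fold without passing, at 1 ± 0.45 for GFP against Thy1.1 in unmarked cells (edgeR adjusted p = 0.441) and 1.03 ± 0.45 for the mark in Thy1.1 cells (edgeR adjusted p = 0.655). The interaction was 1.95 ± 0.64, with a 95% interval from 0.48 to 3.43 (edgeR adjusted p = 0.274).

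In both GFP populations library 3 held more Gzmb than library 4, 2.21-fold in unmarked and 2.48-fold in marked cells, as it did for Il10. In Thy1.1 cells library 1 likewise held more Gzmb than library 2, 1.24-fold in unmarked and 1.11-fold in marked cells. Without marked GFP library 3 the Gzmb differences were 2.10 and 2.14, and without library 4 they were 3.45 and 3.66, called each time. The call between reporters was lost without either marked Thy1.1 library (adjusted p 0.0703 and 0.0696), and the call for the mark without unmarked GFP library 4 (2.48, adjusted p = 0.0541). CD8 T and NK cell markers, of cells that also express granzymes, summed to 12.7 and 17.7 CPM in marked GFP cells and to 15.5 to 41.0 CPM in the other 6 libraries. Of these markers, Cd8b1 stood at 6.68 and 8.35 CPM in marked GFP cells and 9.99 to 25.7 CPM in the others. Cd8a was likewise lowest in marked GFP cells, at 0.541 and 0 CPM against 0.868 to 7.15 CPM in the others. Eomes was at 0 and 0.0269 CPM there and 0.798 to 3.5 CPM in the others. Its fall with GFP in marked cells was called (-6.18 ± 1.29, edgeR adjusted p = 0.018), at counts near 0. The NK cell marker Klrb1c did not follow Cd8b1, with 5.53 and 9.32 CPM in marked GFP cells and 1.42 to 8.72 CPM in the others. Of 5 mast cell and basophil markers, Mcpt4 and Fcer1a were at 0 in all 8 libraries and Cpa3 was counted in all 8, with its 2 lowest values, 1.74 and 0.0537 CPM, in marked GFP cells. Mcpt8 had 192 counts (4.33 CPM) in marked GFP library 3, the library with the most Gzmb, and 0 in the other 7. The part of these cells in the Gzmb level was not tested.

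The other granule genes did not follow Gzmb. Gzma, the protease granzyme A, had 115 and 96 counts in unmarked Thy1.1, 205 and 144 in marked Thy1.1, 1 and 18 in unmarked GFP, and 27 and 0 in marked GFP cells. These are 2.43 and 2.24, 4.19 and 3.29, 0.0216 and 0.396, and 0.609 and 0 CPM, so every Thy1.1 library lay above every GFP library. Libraries of the 2 reporters did not overlap for 59% of all genes tested in marked cells and 42.6% in unmarked cells, in either direction. The estimates, -3.59 ± 1.74 in marked cells (edgeR adjusted p = 0.213) and -3.47 ± 1.74 in unmarked cells (edgeR adjusted p = 0.495), did not pass, and the exact Poisson intervals of the 2 GFP libraries of a population did not overlap.

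Prf1, the perforin gene, ranged from 5.56 to 13.3 CPM over all 8 libraries, and all 4 populations overlapped with the next in order. It was at 9.97 and 13.3, 11.4 and 9.48, 5.56 and 11, and 6.09 and 11.8 CPM in unmarked Thy1.1, marked Thy1.1, unmarked GFP and marked GFP cells. In both GFP populations library 3 held less than library 4, by ratios of 0.507 and 0.515, the reverse of Gzmb. Its difference between reporters in marked cells was -0.22 ± 0.44, with a 95% interval from -1.24 to 0.80 (edgeR adjusted p = 0.792). With the mark in GFP cells it was 0.12 ± 0.44, from -0.91 to 1.14 (edgeR adjusted p = 0.902). A log2 change of the size seen for Gzmb lies outside both intervals, and a change inside them was not detectable with these libraries.

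Of 8 further granzyme genes, 2 were tested and 0 were called. Gzmm ranged from 0.389 to 2.62 CPM and Gzmk from 0 to 1.07 CPM, while Gzmc, Gzmd and Gzmn had 0 counts in all 8 libraries and Gzme, Gzmf and Gzmg 1 to 9 counts in all. Of 18 genes for loading, releasing and resisting granules, 17 were tested. In marked cells 5 were higher and 2 lower with GFP, and in GFP cells 4 were higher and 1 lower with the mark, with medians of 0.06 and 0.13 that lie close to those of all genes, of which 14.8% and 12.6% were called.

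Srgn, the proteoglycan that holds granzymes in the granule, stood at 426 and 445 CPM in unmarked Thy1.1, 575 and 600 CPM in marked Thy1.1, 651 and 471 CPM in unmarked GFP, and 1190 and 1010 CPM in marked GFP cells. It rose by 0.91 ± 0.15 (edgeR adjusted p = 0.00763) and 0.97 ± 0.15 (edgeR adjusted p = 0.00746). Stx11, a membrane fusion protein of granule release, rose by 1.38 ± 0.21 and 1.5 ± 0.21, from 78.9 and 50.4 CPM in unmarked to 171 and 196 CPM in marked GFP cells. Lamp1, a membrane protein of lysosomes and granules, fell by 0.72 ± 0.10 and 0.53 ± 0.10. The calls of Stx11 for the mark and of Lamp1 between reporters held under all 16 alternatives, while the call of Srgn between reporters was lost without either marked Thy1.1 library and that of Stx11 without library 2 of these (adjusted p up to 0.0804).

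Serpinb9, which encodes an inhibitor of granzyme B, had its lowest level in marked GFP cells. It stood at 35.5 and 30.9 CPM in unmarked Thy1.1, 36.9 and 32.1 CPM in marked Thy1.1, 26.0 and 18.3 CPM in unmarked GFP and 9.84 and 13.9 CPM in marked GFP cells. It fell by 1.54 ± 0.26 with GFP in marked cells (edgeR adjusted p = 0.00812), a call lost without marked Thy1.1 library 1 (adjusted p = 0.06), and was at -0.91 ± 0.25 with the mark in GFP cells (edgeR adjusted p = 0.0541). Serpinb9 was singled out after its values were seen.

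**Figure D3:**
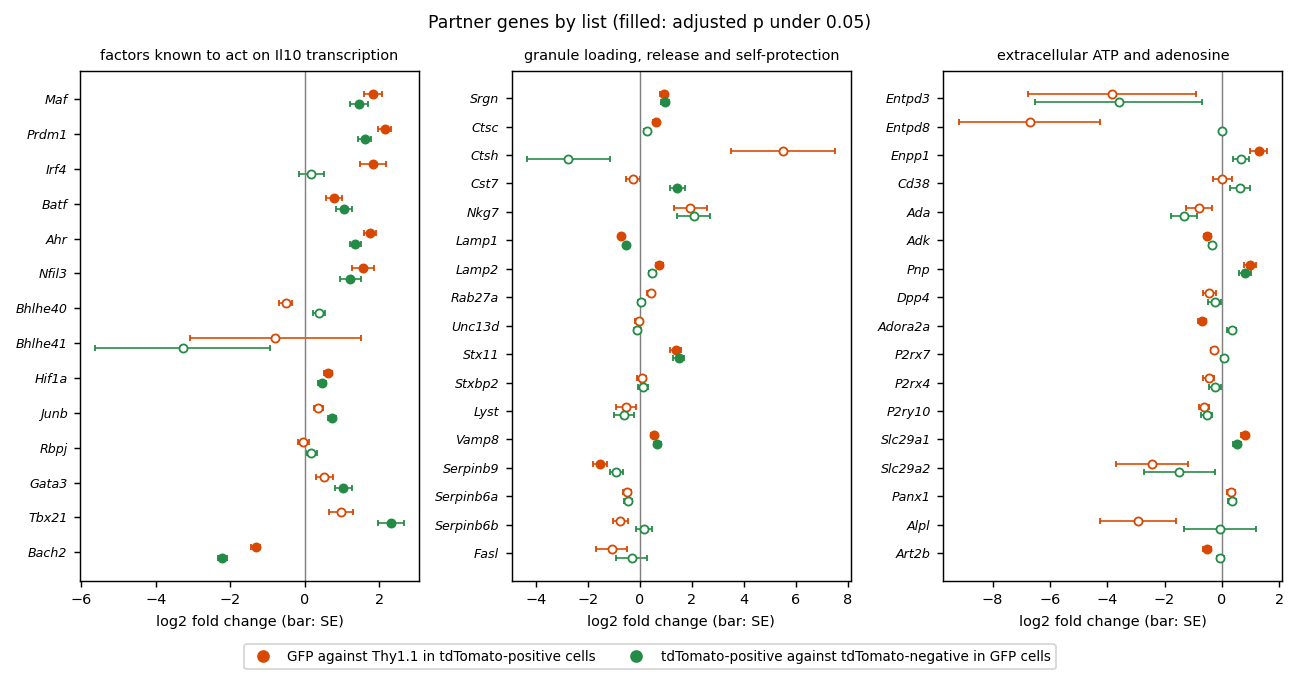
Log2 fold changes (x axes, log2 scale, a range for each panel) of the tested genes of 3 lists with standard errors, for GFP against Thy1.1 in marked cells (orange) and marked against unmarked GFP cells (green), where filled points have an adjusted p under 0.05. Prdm1, Ahr and Maf lie right of 0 and Bach2 left of 0 in both comparisons, while the granule and adenosine panels hold called genes on both sides.

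Nt5e, the CD73 gene, had the smallest standard errors of the 8 tested genes. It was measured at 611 and 648 CPM in unmarked Thy1.1, 706 and 654 CPM in marked Thy1.1, 716 and 652 CPM in unmarked GFP, and 1110 and 1140 CPM in marked GFP cells. The other 6 libraries lay between 611 and 716 CPM, and the marked GFP libraries stood clear of them. Nt5e rose by 0.73 ± 0.08 with GFP in marked cells (edgeR adjusted p = 0.0021), or 1.66-fold, and by 0.72 ± 0.08 with the mark in GFP cells (edgeR adjusted p = 0.00263), or 1.65-fold. Both calls held under all 16 alternatives. Outside marked GFP cells the differences were small, 0.12 ± 0.08 between reporters in unmarked cells (95% interval -0.06 to 0.31) and 0.11 ± 0.08 with the mark in Thy1.1 cells (-0.07 to 0.30). The interaction was 0.61 ± 0.11 (edgeR adjusted p = 0.0833), the smallest adjusted p for it among the 8 genes, and DESeq2 called it at 0.58 (adjusted p = 0.000514).

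Entpd1, the CD39 gene, differed from Nt5e in which population stood apart. It was at 118 and 100 CPM in unmarked Thy1.1, 108 and 94.2 CPM in marked Thy1.1, 62.1 and 55.8 CPM in unmarked GFP, and 121 and 99.5 CPM in marked GFP cells. Unmarked GFP cells lay below the other 3 populations, which overlapped. Entpd1 rose by 0.90 ± 0.15 with the mark in GFP cells (edgeR adjusted p = 0.0107), or 1.87-fold, a call lost without unmarked GFP library 4 (0.79, adjusted p = 0.0773). Between reporters it was 0.13 ± 0.15 in marked cells, with a 95% interval from -0.22 to 0.47 (edgeR adjusted p = 0.629), and -0.89 ± 0.15 in unmarked cells (edgeR adjusted p = 0.0641). The latter passed with DESeq2, with no filter and with a stricter filter, at -0.88, -0.86 and -0.88. The interaction was 1.02 ± 0.21 (edgeR adjusted p = 0.114) and was called by DESeq2 at 0.99 (adjusted p = 0.00255).

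Of 22 further genes that handle extracellular ATP and adenosine, 17 were tested. In marked cells 3 were higher and 3 lower with GFP, with a median of -0.51, and in GFP cells 2 were higher and 0 lower with the mark, with a median of -0.06. The medians over all genes were -0.01 and 0.03, and 14.8% and 12.6% of all genes were called, so 2 of 17 for the mark is near the background. Slc29a1, a nucleoside transporter that clears adenosine, rose by 0.79 ± 0.13 (edgeR adjusted p = 0.00837) and 0.52 ± 0.13 (edgeR adjusted p = 0.0408), from 223 and 205 CPM in unmarked to 267 and 348 CPM in marked GFP cells. Pnp, which breaks down inosine and guanosine, rose by 0.97 ± 0.21 and 0.80 ± 0.21. Adk, the kinase that turns adenosine back into AMP, fell by 0.51 ± 0.11 with GFP in marked cells (edgeR adjusted p = 0.0211). Adora2a, the adenosine receptor gene, was at 60.4 and 57.0 CPM in marked Thy1.1 and 37.8 and 34.8 CPM in marked GFP cells and fell by 0.70 ± 0.15 (edgeR adjusted p = 0.0228). Unmarked cells showed the same direction for Adora2a, at 64.2 and 54.3 CPM in Thy1.1 and 30.6 and 26.7 CPM in GFP cells. That difference of -1.05 ± 0.16 did not pass (edgeR adjusted p = 0.0525). The calls of Slc29a1, Pnp, Adk and Adora2a between reporters in marked cells were all lost without either marked Thy1.1 library, with an adjusted p of up to 0.145 over the alternatives. The calls of Slc29a1 and Pnp for the mark each held under 7 of 16 alternatives.

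Levels of different genes were compared per kilobase of exon, from exon lengths in GENCODE, which may differ from the annotation behind the counts. In marked GFP cells the mean levels were 420 CPM per kilobase for Gzmb, 131 for Nt5e, 120 for Il10, 59.3 for Fgl2, 19.8 for Entpd1, 8.66 for Ebi3, 3.47 for Prf1 and 0.303 for Gzma. The Gzmb libraries were at 599 and 242, those of Il10 at 154 and 86.3 and those of Nt5e at 130 and 133 CPM per kilobase, so Nt5e and Il10 did not separate. In unmarked Thy1.1 cells Nt5e led with 73.1 CPM per kilobase, followed by Gzmb with 26.6, Entpd1 with 19.6, Ebi3 with 18.3, Fgl2 with 15.3, Il10 with 8.71, Prf1 with 4.51 and Gzma with 2.32. Il10 was thus below Ebi3 per kilobase in unmarked Thy1.1 cells and above it in marked GFP cells, in every library of each.

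The genes whose levels ran most like each of the 8 were found by Pearson's r of log2(CPM + 0.5) over the 8 libraries among genes averaging 5 CPM or more, and r is given as a description. All genes share the same libraries, and the marked GFP population stands apart for many. Only the 3 highest of 9711 or 9712 values were kept per gene, so how common such values are was not examined. For Il10 they were Cdkn2c (0.994), Itpa (0.99) and Nfil3 (0.987), the last of which is on the Il10 list. For Gzmb they were Tceb2 (0.998), Supt4a (0.997) and Zap70 (0.995), and for Nt5e Rfk (0.993), Tnfrsf1b (0.992) and Timm17a (0.99). For Fgl2, after Ccdc146 with r = 1, they were Pla2g16 (0.998) and Cdk2ap1 (0.992). For Ebi3 they were Ttn (0.983), Nr3c2 (0.983) and Sgf29 (0.98), and for Gzma Serpinc1 (0.993), Asxl2 (0.987) and Ptger2 (0.987). Entpd1 and Prf1 had the lowest values for their leading genes, with Zcchc18 (0.954), Plekha3 (0.948) and Elac1 (0.947) for Entpd1 and Snx21 (0.978), Rnf31 (0.943) and Phf12 (0.942) for Prf1.

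**Figure D4:**
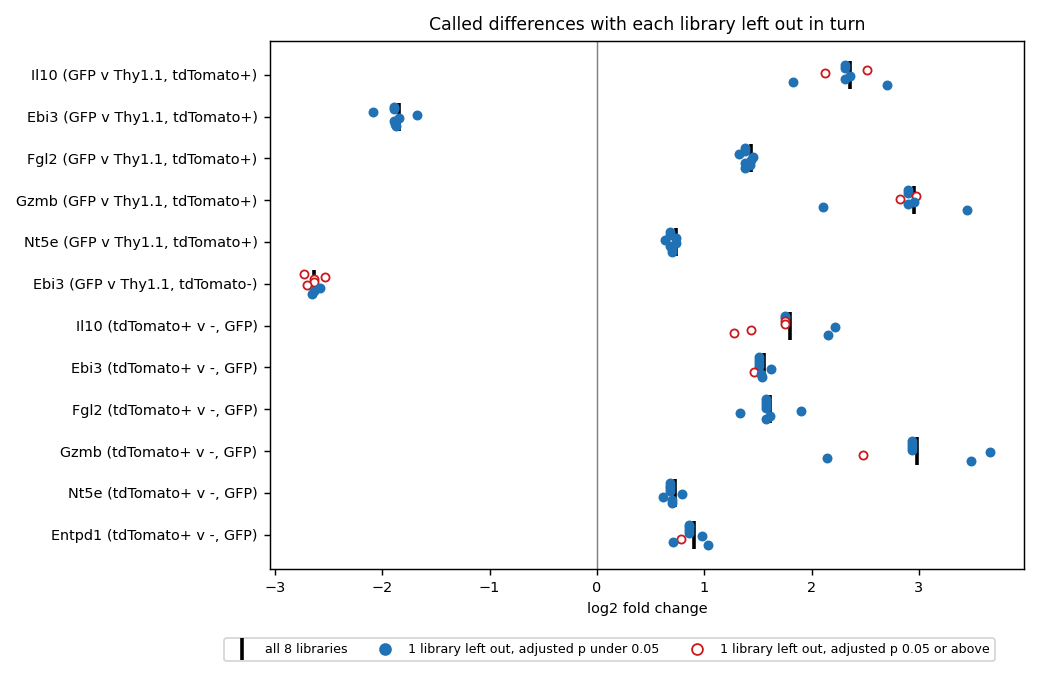
Log2 fold changes (x axis, log2 scale) of the 12 called differences when each of the 8 libraries was left out in turn, with a black bar for all 8 libraries, filled blue points for an adjusted p under 0.05 and open red points for calls lost. Fgl2 and Nt5e keep their call at every point in both comparisons and Ebi3 does between reporters in marked cells, while Gzmb spreads from 2.10 to 3.66 and Il10 from 1.28 to 2.70.

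Foxp3 itself was counted in all 8 libraries and fell by 0.48 ± 0.12 with GFP in marked cells (edgeR adjusted p = 0.0314). It stood at 186 and 187 CPM in marked Thy1.1 and at 126 and 141 CPM in marked GFP cells. Calls of Il10, Fgl2, Gzmb and Nt5e as higher were thus made in the population with less Foxp3 mRNA. The Foxp3 call was lost without either marked Thy1.1 library or marked GFP library 3 (adjusted p up to 0.128).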

How the data were processed

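RNA of 8 sorted CD4 T cell libraries was amplified as polyA cDNA with the SMART-Seq v4 kit, which does not mark strand, and sequenced as paired ends, per the labels' protocols. Per the file headers, the authors deposited 1 table of raw counts, whole numbers of reads for each gene that had not been normalized. DESeq, without a version, appears in the submitters' processing notes. Build, aligner and counter were not given in the sources used here. Rows with no gene name, 8 in all, held 0.0215% to 0.0264% of the counts and were left out. Columns of GFP cells carry the numbers 3 and 4, unlike the titles with 1 and 2, so they were matched to a population and not to a sample.

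The tests were run with edgeR 4.0.16 (with limma 3.58.1) under R 4.3.3, and DESeq2 1.42.0 served as an alternative. Low genes were removed with filterByExpr at a minimum count of 10, libraries were scaled by TMM (factors 0.978 to 1.02), and all 8 libraries entered 1 robust quasi-likelihood fit that had a mean per population. Residual degrees of freedom numbered 4, with a common biological coefficient of variation of 0.399. P-values were adjusted over 13989 genes by the Benjamini-Hochberg method in each of 5 tests, with a threshold of 0.05, and standard errors come from the F statistic. Whether both libraries of a population stem from different animals is not stated in the labels, so p-values reflect only how these libraries vary, possibly for technical reasons. Intervals are at 95% confidence; intervals and limits from low counts reflect counting error alone.

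The 9 genes, 7 lists of partner genes, 8 marker lists and tests were chosen with earlier results of these data known, and the promoter motifs after the values were seen. Of the marker genes, 1 is not reported here and was left out of its list's sum. From each partner list, the text names up to 3 genes with the smallest adjusted p over the 4 pairwise comparisons, list genes named as background, list genes at or near 0 counts, and Serpinb9. Alternatives were other scalings, filters, DESeq2, the 4 libraries of a comparison alone, a replicate block and each library left out. Pattern likeness used the 3 highest r per gene, with antigen receptor segments and gene models without a name excluded. The code was tested on simulated counts.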

Additional observations from a re-analysis of the deposited data

How the results depend on the processing

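Fgl2 and Nt5e kept their calls in both comparisons with marked GFP cells under all 16 alternatives, and Ebi3 between reporters in marked cells did too. Over all comparisons, 576 of the members' log2 fold changes kept direction and call, 21 lost a call, 13 gained one and 17 changed sign, none of the last past the threshold in the main test. The 2 libraries per population and 4 residual degrees of freedom limit all calls. Calls were also lost in refits without a library of another population. Such a refit has 1 degree of freedom fewer, and whether that was the cause was not tested.

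With each library left out, the genes called ranged from 481 to 2118 for reporters in marked cells (2074 with all), 0 to 75 in unmarked cells (23), 458 to 1801 for the mark in GFP cells (1768) and 0 to 119 for the interaction (62). Members called ranged from 3 to 5, 0 to 1, 2 to 6 and 0 to 1 in the same order. With no filter, 98 genes and 2 members were called between reporters in unmarked cells and 109 genes for the interaction; with the stricter filter these were 122, 2 and 133. DESeq2 called 3164 genes for reporters in marked cells, 573 genes and 3 members (Il10, Ebi3 and Entpd1) in unmarked cells, 3003 for the mark in GFP cells, 150 genes and 1 member in Thy1.1 cells, and 568 genes and 3 members (Fgl2, Nt5e and Entpd1) for the interaction. With only the 4 libraries of a comparison, 1 gene and 0 members were called between reporters in unmarked cells, 300 genes and 2 members (Fgl2 and Nt5e) for the mark in GFP cells and 2 genes in Thy1.1 cells. Beyond the loss of samples or genes that some of these bring, the cause was not tested. Library totals alone gave 886 genes higher and 1120 lower for reporters in marked cells (1120 and 954 with TMM) and 706 and 974 for the mark in GFP cells (873 and 895).

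With the replicate number as a block within each reporter, 78 genes and 3 members (Ebi3, Gzmb and Entpd1) were called between reporters in unmarked cells, and 1 member, Gzmb, for the interaction (1.92, adjusted p = 0.0109). With odd against even numbers as the block, 39 genes and 2 members were called between reporters in unmarked cells. The block changed no other call of a member. Same-numbered libraries deviated together weakly (r across genes 0.105 in Thy1.1 and 0.119 in GFP cells, 0.0625 to 0.0943 between reporters), and with 1 such value per reporter and no label that ties a number to an animal or day, the numbers were not taken to pair the libraries; whether they do was not settled.

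Signs changed only in refits without 1 library, and for no called value. Over these refits Entpd1 ranged from -0.211 to 0.025 for the mark in Thy1.1 cells (turned without unmarked Thy1.1 library 1) and from -0.071 to 0.247 for reporters in marked cells (marked Thy1.1 library 2 and marked GFP library 3). Prf1 ranged from -0.341 to 0.086 for the mark in Thy1.1 cells (unmarked Thy1.1 library 2), -0.79 to 0.128 for reporters in marked cells (marked GFP library 3), -0.442 to 0.647 for the mark in GFP cells (unmarked GFP library 3, marked GFP library 4) and -0.282 to 0.789 for the interaction (unmarked Thy1.1 library 2, unmarked GFP library 3, marked GFP library 4). The Il10 interaction ranged from -0.324 to 0.791 (unmarked Thy1.1 library 2, unmarked GFP library 4, marked GFP library 3). Gzma ranged from -6.242 to 3.628 for the mark in GFP cells (unmarked and marked GFP library 3) and from -6.936 to 2.933 for the interaction (unmarked and marked GFP library 4). The cause was not tested.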
